A study of Mus musculus with 24 samples.

Results

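The genes described here are the nuclear-encoded subunits of the mitochondrial respiratory chain. They were chosen as protein-coding genes of the GRCm38 mouse annotation whose symbols carry the family names of complex I (Ndufa, Ndufb, Ndufc, Ndufs and Ndufv), complex II (Sdha to Sdhd), complex III (Uqcr), complex IV (Cox4 to Cox8) and complex V (Atp5). The rule found 85 gene identifiers of 22028 protein-coding genes: 37 for complex I, 4 for complex II, 8 for complex III, 18 for complex IV and 18 for complex V. Reads were found for 82 of them in C2C12 and for 81 in NSC34. No C2C12 read was assigned to Cox4i2, Cox8c or an additional Atp5o identifier. The symbol rule leaves Ndufa4 with complex I, although the protein is now placed in complex IV, and it takes in Ndufa4l2, Cox7a2l and Atp5s, which are not core subunits.

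Total RNA of 2 mouse lines was read on a Nanopore MinION. C2C12 is a line of myoblasts, the precursors of muscle fibres, and NSC34 is a hybrid line with properties of motor neurons. Both were sequenced without the other line (control, n = 6) and after 3 days of co-culture with it (n = 6), and all 24 libraries are labelled wild type. How the RNA of each line was obtained apart after co-culture is not in the labels, nor whether libraries of a group came from separate cultures, so p-values measure the spread between libraries, which may be technical.

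Complexes I to IV pass electrons from NADH and succinate to oxygen and move protons across the inner mitochondrial membrane, and complex V, the ATP synthase, uses the proton gradient to make ATP. Most subunits are encoded in the nucleus, and a few core ones in mitochondrial DNA. Some complex IV subunits exist in a ubiquitous form and a form of heart and skeletal muscle: Cox8a and Cox8b, Cox6a1 and Cox6a2, Cox7a2 and Cox7a1. The gamma subunit of complex V, Atp5c1, has a muscle form made by skipping one short exon.

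Depth set what could be seen. C2C12 libraries held 121154 to 658075 reads and NSC34 libraries 88 to 30314. A subunit without a read may have reached 0.906 CPM (a gene's reads scaled to a library total of 1000000) over all C2C12 reads and 42.3 CPM over all NSC34 reads, a limit that, like the intervals below, covers counting error only. Of 12 muscle marker genes, C2C12 had reads for 12, with 3530 and 5451 Myog reads in controls and co-culture, and NSC34 had 4 reads in all. C2C12 controls held 11430 Mylpf and 4728 Acta1 reads, but 31 each of Myod1 and Myf5. How far these cells had differentiated was not tested. Of 12 neuron markers, NSC34 had reads for 8, with 92 reads in all. Mnx1, Nefh, Nefm and Stmn2 had no NSC34 read, and Stmn2 had 176 and 193 C2C12 reads in controls and co-culture.

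The coding sequences of the 2 forms of complex IV subunit 8 are shown because Cox8b and Cox8a were the only subunits past the threshold in C2C12 and because Cox8b gave no NSC34 read. They were read from the GENCODE M21 transcripts of GRCm38, on the minus strand of chromosome 7 (Cox8b, 140898945 to 140900446) and of chromosome 19 (Cox8a, 7215153 to 7217616). Capitals mark the longest run that both share, 10 bases.
Cox8b: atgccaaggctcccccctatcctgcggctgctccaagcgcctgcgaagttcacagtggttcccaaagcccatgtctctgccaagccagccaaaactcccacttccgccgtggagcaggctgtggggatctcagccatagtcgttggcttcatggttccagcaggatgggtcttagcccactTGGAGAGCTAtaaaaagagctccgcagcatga
Cox8a: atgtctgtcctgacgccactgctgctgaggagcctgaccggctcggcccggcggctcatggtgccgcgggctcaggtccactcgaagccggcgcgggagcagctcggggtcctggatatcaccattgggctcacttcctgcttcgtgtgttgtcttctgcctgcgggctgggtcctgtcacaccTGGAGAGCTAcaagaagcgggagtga
Of 204 aligned bases, 115 were identical (56.4%). No other gene shared 100 or more bases with either at 90% identity or more. The coding identity was 64.6% for Cox6a2 against Cox6a1 and 62.6% for Cox7a1 against Cox7a2.

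The ends of the Atp5c1 coding sequence are shown because they carry the form that separated the lines in reads pooled over both conditions. Exon 9 is 37 bases long (chromosome 2, 10056770 to 10056806, minus strand). The last 40 coding bases of a transcript that keeps it and of one that skips it follow, with the coding bases after exon 8 in capitals.
Atp5c1 with exon 9: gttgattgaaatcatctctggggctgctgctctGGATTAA
Atp5c1 without exon 9: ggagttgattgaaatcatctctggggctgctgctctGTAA
The 2 transcripts also differ in their annotated ends.

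Between genes, levels were compared as CPM per kilobase of transcript, averaged over the 12 libraries of a line. In C2C12 the median subunit stood at 1252 CPM per kilobase in complex V, 1030 in complex III, 927 in complex IV, 529 in complex I and 78.6 in complex II. The highest was Cox7c, a small complex IV subunit, at 4941, followed by Cox6c at 4436 and Cox8a at 3963. Cox7c shares 100 or more bases with Gm10012, which held reads equal to 35.8% of those of Cox7c, so its reads may be split. Ndufa4 led complex I at 2653, Atp5e, the epsilon subunit of the ATP synthase, led complex V at 2548, and Uqcr11 led complex III at 1815. Sdha, the flavoprotein of succinate dehydrogenase, stood at 17.3, Uqcrc1 at 32.4 and Ndufs1 at 38.5, while Atp5b, the catalytic beta subunit of the ATP synthase, stood at 634. Division by length itself changed the order of genes. Over pooled C2C12 reads without it, Atp5b stood at 1102 CPM and Atp5e at 1065 CPM. Whether counts of whole Nanopore reads call for that division, and the part of transcript length in these levels, was not tested. In NSC34 the medians were 743 for complex V, 445 for complex III, 1206 for complex IV, 376 for complex I and 71.3 for complex II. Cox7c was again the highest, at 6366 CPM per kilobase. These NSC34 means weigh every library alike, including the one with 88 reads. Over pooled reads Cox7c was nearly equal in the lines, at 2681 CPM in NSC34 and 2627 CPM in C2C12.

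In C2C12, Cox8b and Cox8a rose in co-culture, and no subunit fell (0.623% of all genes tested passed as lower). Of the 85 genes, 77 had enough reads to be tested, and 2 of them passed at an edgeR adjusted p under 0.05, both higher, where 1.44% of all 2570 genes tested passed and 0.817% passed as higher. Both belong to complex IV, whose other 11 tested members did not pass. Fold changes above 0 were found for 69 of the 77, with a median log2 fold change of 0.14 against 0.0024 over all genes tested. At an unadjusted p under 0.05 there were 20 subunits, all with a fold change above 0, and 378 of the 2570 genes. In bulk RNA a change in the number of cells of a kind and a change in RNA per cell cannot be told apart.

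**Figure D1:**
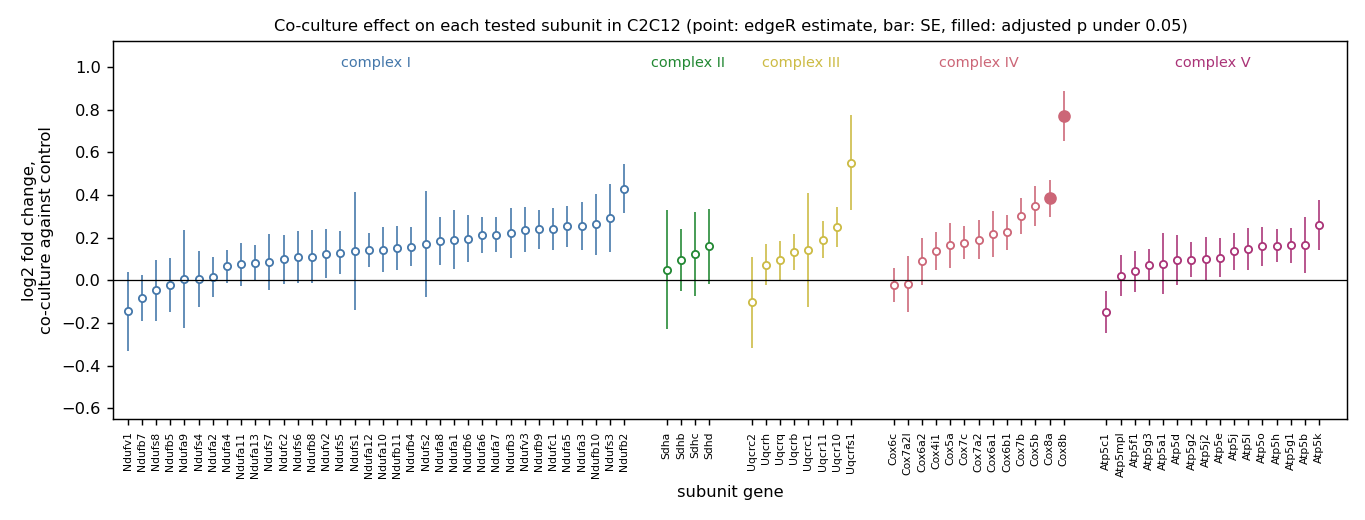
Log2 fold change of each of the 77 tested subunits in C2C12, co-culture against control, ordered within complexes; points are edgeR estimates and bars standard errors, and filled points passed the threshold. Most points lie a little above 0, with 8 below it, and Cox8b (0.77) and Cox8a (0.38) are the only filled ones.

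Cox8b, the muscle form of subunit 8, ranged over the 6 control libraries from 191 to 325 CPM with a median of 227. In the 6 co-cultured libraries it ranged from 337 to 436 CPM with a median of 408. The lowest co-cultured library stood above the highest control. On the log2 scale the difference was 0.77 (SE 0.117, edgeR adjusted p = 0.0023), and Cox8b passed in each of the 9 other settings and whichever of the 12 libraries was left out.

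Cox8a, the ubiquitous form, ranged from 1580 to 2219 CPM in controls (median 1821) and from 2278 to 2755 CPM in co-culture (median 2391). Again the groups did not overlap. The log2 fold change of Cox8a was 0.38, with an SE of 0.0877 (edgeR adjusted p = 0.0347). It passed in 8 of the 9 other settings and lost the call with 7 of the 12 libraries left out in turn. The edgeR adjusted p was 0.0626, 0.0958 and 0.0699 without co-culture libraries 1, 2 and 5, and 0.057, 0.0608, 0.0995 and 0.0508 without control libraries 1, 2, 3 and 4.

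The groups were also fully apart for Cox5b, a complex IV subunit on the matrix side, at 581 to 783 CPM in controls (median 737) and 822 to 1048 CPM in co-culture (median 856). Its log2 fold change of 0.35 (SE 0.0927) missed the threshold (edgeR adjusted p = 0.0545). It passed in 3 of the 9 other settings and without control library 5 (edgeR adjusted p = 0.0449). These 3 subunits were the ones with every co-cultured library above every control, 3 of 77 tested, where 1.05% of all genes tested were so placed; no subunit had every co-cultured library below, against 0.661% of all genes.

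No change passed the test for the other muscle forms. Cox6a2, the muscle form of subunit 6a, ranged from 494 to 781 CPM in controls (median 582) and from 537 to 706 CPM in co-culture (median 658). The groups overlapped, and the log2 difference was 0.09 (SE 0.11, edgeR adjusted p = 0.814). Its ubiquitous partner Cox6a1 stood at 0.22 on that scale (edgeR adjusted p = 0.363). Cox7a1, the muscle form of subunit 7a, was too low to be tested, with 17 reads in all controls and 55 in all co-cultured libraries. It ranged from 0 to 23.5 CPM in controls (median 12.4) and from 20.9 to 44.8 CPM in co-culture (median 28.9), and the groups overlapped by 1 library on each side. Its partner Cox7a2 stood at 0.19 on the log2 scale (edgeR adjusted p = 0.334).

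**Figure D2:**
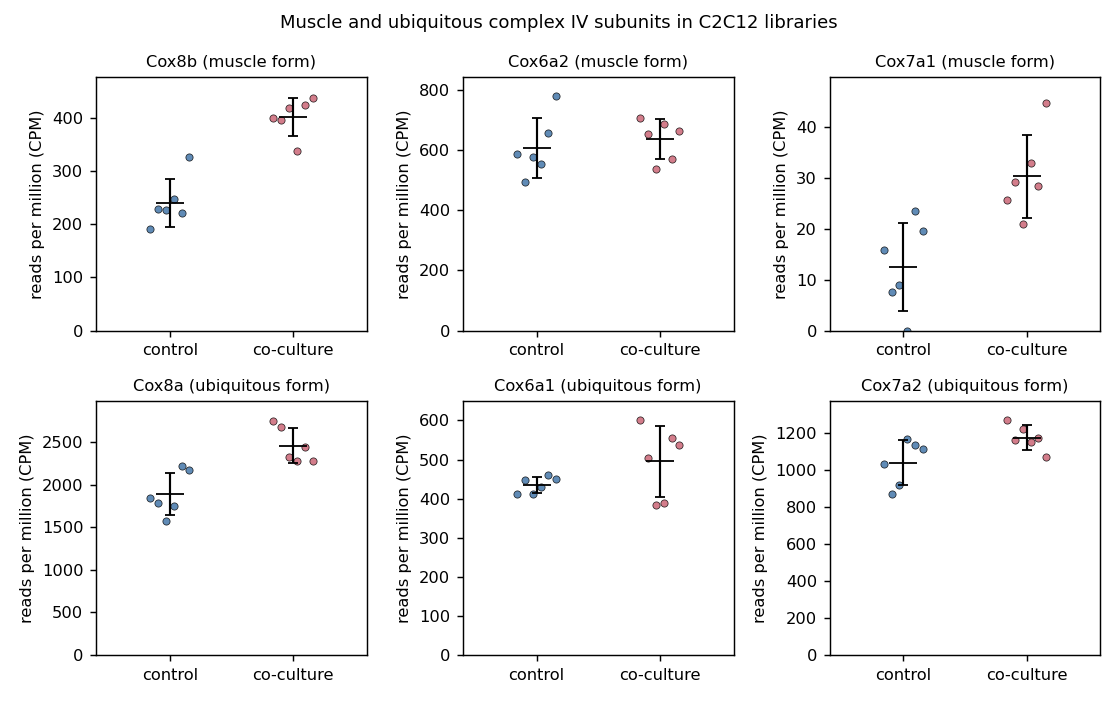
CPM of the muscle form (top row) and the ubiquitous form (bottom row) of 3 complex IV subunits in the 6 control and 6 co-cultured C2C12 libraries; points are libraries, bars the mean and SD. Cox8b and Cox8a are apart between the groups, while Cox6a2, Cox6a1, Cox7a1 and Cox7a2 overlap.

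As a share of both forms, Cox8b made up 11.3 ± 1.70% of subunit 8 reads in controls and 14.1 ± 1.45% in co-culture (mean ± SD, n = 6 each). In controls the share ran from 9.04 to 13.0% and in co-culture from 12.6 to 16%, so the groups overlapped: 5 controls lay below all co-cultured libraries and 3 co-cultured libraries above all controls. Cox7a1 made up 1.18 ± 0.732% and 2.55 ± 0.819% of subunit 7a reads. Cox6a2 made up most subunit 6a reads in both groups, 58.0 ± 3.59% and 56.4 ± 4.41%. These shares are a description and were not tested.

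Muscle markers also differed between the groups. The 12 muscle markers together took 2.08 to 2.48% of reads in controls and 2.45 to 2.71% in co-culture, 4 co-cultured libraries lay above all controls, and 4 of the 10 tested markers passed as higher. Mb, myoglobin, had the largest fold of them at 0.73 (edgeR adjusted p = 3.41e-05). Ttn, the giant sarcomere protein titin, stood at -0.64 (edgeR adjusted p = 0.104), the one tested marker below 0. The neuron markers took 0.0210 ± 0.00264% and 0.0193 ± 0.00124% of C2C12 reads (n = 6 each). Their part in the changes of Cox8b and Cox8a was not tested.

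Complex I had 36 tested subunits and none passed, with a median log2 fold change of 0.14 and 32 of 36 above 0. The nearest was Ndufb2, an accessory subunit of the membrane arm, at 249 to 365 CPM in controls (median 293) and 324 to 453 CPM in co-culture (median 408). The groups overlapped slightly, and the log2 difference was 0.43 (SE 0.115, edgeR adjusted p = 0.0545). It passed in 3 of the 9 other settings, and without co-culture library 4 (edgeR adjusted p = 0.0492) and control library 6 (0.033). Ndufa5 and Ndufb9, further accessory subunits, had log2 fold changes of 0.25 and 0.24 (edgeR adjusted p = 0.210 and 0.211). Ndufv1, which carries the NADH-binding site, had the lowest value, -0.15 (SE 0.185, edgeR adjusted p = 0.818). The most read member, Ndufa4, stood at 0.07 (edgeR adjusted p = 0.803).

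None of the 4 complex II subunits passed. Sdhd, one of its membrane anchors, had the largest fold at 0.16 (SE 0.175, edgeR adjusted p = 0.775) and Sdha the smallest at 0.05 (SE 0.278). Sdhb, the iron-sulfur subunit, and Sdhc, the other anchor, were at 0.10 and 0.12. Sdhc shares 100 or more bases with 55 other genes, which held 3919 C2C12 reads against 454 of its own, so its value is uncertain.

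None of the 8 complex III subunits passed. Uqcrfs1, the Rieske iron-sulfur protein, had the largest fold of the complex, 0.55 (SE 0.224, edgeR adjusted p = 0.231), on 163 control and 278 co-culture reads. It ranged from 66.0 to 143 CPM in controls and from 72.6 to 198 CPM in co-culture, with wide overlap. Uqcr10 and Uqcr11, small subunits of the complex, had log2 fold changes of 0.25 and 0.19 (edgeR adjusted p = 0.191 and 0.288). Uqcrc2, a core protein, was lowest at -0.10 (SE 0.214), and Uqcrq, the most read, stood at 0.09.

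Among the other complex IV subunits, Cox7b reached 0.30 (SE 0.0855, edgeR adjusted p = 0.0684). It ranged from 921 to 1205 CPM in controls (median 1104) and from 1192 to 1426 CPM in co-culture (median 1322). The groups overlapped by 1 library on each side. Cox6b1 stood at 0.22, Cox7c at 0.18 and Cox4i1 at 0.14 (edgeR adjusted p = 0.188, 0.262 and 0.527). Cox6c was lowest, -0.02 (SE 0.0809).

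None of the 16 tested complex V subunits passed, with a median of 0.10. Atp5k, Atp5h and Atp5g1 had log2 fold changes of 0.26, 0.16 and 0.16 (edgeR adjusted p = 0.293, 0.331 and 0.371). Atp5g1, Atp5g2 and Atp5g3 encode the same membrane ring protein, and the latter 2 stood at 0.10 and 0.07. Atp5g2 shares 100 or more bases with 4 other genes, whose reads, 509 of 510 of them from Gm10175, equalled 15.9% of its own, so its reads may be split. Atp5c1 had the lowest value of all subunits, -0.15 (SE 0.0984, edgeR adjusted p = 0.553), at 371 to 524 CPM in controls (median 509) and 396 to 487 CPM in co-culture (median 427).

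Summed over all subunits, the reads took 4.82 ± 0.251% of C2C12 control libraries and 5.33 ± 0.184% of co-cultured ones (SD, n = 6 each). Controls ran from 4.51 to 5.10% and co-cultured libraries from 5.15 to 5.67%, with no overlap. Complex IV went from 1.37 ± 0.101% to 1.57 ± 0.0594%, also without overlap. Without Cox8a and Cox8b it went from 1.16 ± 0.0812% to 1.29 ± 0.0453%, with 5 of 6 co-cultured libraries above all controls. Complex I went from 1.59 ± 0.0771% to 1.74 ± 0.0894%, complex III from 0.413 ± 0.0200% to 0.452 ± 0.0295% and complex V from 1.40 ± 0.0728% to 1.51 ± 0.0361%, each with some overlap. Complex II went from 0.0521 ± 0.00536% to 0.0570 ± 0.00789% and overlapped widely. The mitochondrially encoded subunits took 3.25 ± 0.225% and 3.4 ± 0.44%, and overlapped. None of these sums was tested.

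**Figure D3:**
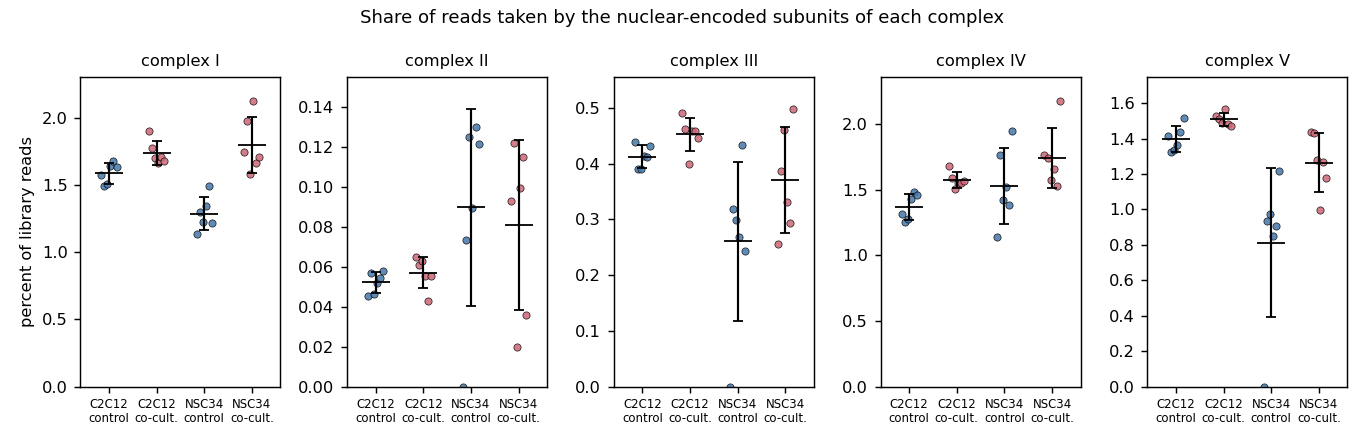
Percent of each library's reads taken by the nuclear-encoded subunits of complexes I to V in the 4 groups of 6 libraries; points are libraries, bars the mean and SD, and each panel has its own axis from 0. In C2C12 only the complex IV panel shows groups without overlap; NSC34 libraries scatter more, and the one with 88 reads lies at 0 in complexes II, III and V.

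Transcript length moved with the fold change in C2C12. Subunits are short, with a median of 806 bases against 1949 over all genes tested, and Spearman's rho of fold change and length was -0.279 across 2561 genes (genes are not independent of each other). Among the shortest of 5 length bins the median log2 fold change was 0.07 over all 513 genes and 0.16 over the 50 subunits among them. With a length trend removed from each library, the subunit median was 0.10, 65 of 77 lay above 0, and Cox8b and Cox8a still passed.

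Genes that work with the subunits were counted from lists of assembly factors and partners. Of 9 tested complex IV assembly genes 1 was higher: Higd1a, which associates with the complex, at 0.72 (edgeR adjusted p = 0.0064). None of the tested assembly genes of complex I (3), II (1) or III (1) passed, nor did Atpif1, the inhibitor of the ATP synthase and the 1 gene tested of the complex V list. Among 9 electron carriers and nucleotide exchangers 0 passed, with Slc25a3, the mitochondrial phosphate carrier, nearest at 0.29 (edgeR adjusted p = 0.108). Among 11 citric acid cycle genes 0 passed, with Dld at -0.35 (edgeR adjusted p = 0.415). Of 12 genes of mitochondrial DNA 0 passed, and mt-Nd1 was nearest at 0.22 (edgeR adjusted p = 0.176). Of 14 listed regulators of mitochondrial genes only Gabpa was tested, at 0.02 (edgeR adjusted p = 0.927).

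The promoters of the 2 forms of subunit 8 are shown because both genes rose. They come from RefSeq (GRCm38.p6), 250 bases before to 50 after the start, for Cox8b at chr7:140900397-140900696 and for Cox8a at chr19:7217567-7217866, both on the minus strand. Capitals mark matches on either strand to the E-box CANNTG, to CCGGAAG, the core bound by GABP and other ETS factors, or to the MEF2 or NRF1 motif.
Cox8b: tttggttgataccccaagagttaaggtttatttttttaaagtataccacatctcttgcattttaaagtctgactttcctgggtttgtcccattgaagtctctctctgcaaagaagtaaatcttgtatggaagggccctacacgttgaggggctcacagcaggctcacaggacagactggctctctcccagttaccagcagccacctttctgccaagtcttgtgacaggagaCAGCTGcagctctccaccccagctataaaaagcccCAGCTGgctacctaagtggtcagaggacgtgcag
Cox8a: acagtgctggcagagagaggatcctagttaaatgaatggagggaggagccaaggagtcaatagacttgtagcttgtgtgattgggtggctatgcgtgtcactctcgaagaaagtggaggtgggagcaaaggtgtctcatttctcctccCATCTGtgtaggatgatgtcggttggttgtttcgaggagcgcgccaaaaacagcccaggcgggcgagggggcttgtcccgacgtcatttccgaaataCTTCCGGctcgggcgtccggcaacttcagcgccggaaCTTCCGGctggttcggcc
Cox8b held no CCGGAAG match, and held the E-box CAGCTG at 2 places, starting 19 bases before and 16 bases after the start. This E-box, itself one form of the general E-box, was found in 16.1% of 27025 promoters and in 6 of the 66 subunit promoters in the table. The general E-box was found in 72.1% of all promoters and in 46 of 66. Cox8a held CANNTG at 102 bases before the start and CCGGAAG at 5 bases before and 32 after it. The ETS core was found in 9.12% of all promoters and in 15 of 66, NRF1 in 1.31% and 6 of 66, and MEF2 in 3.26% and 0 of 66. A match describes these letters only.

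In NSC34, 4 subunits had enough reads to be tested among 49 genes, and 0 passed, where 0.0% of all genes tested passed. At an unadjusted p under 0.05 there were 0 of the 4 subunits and 1 of the 49 genes, and DESeq2 and limma-voom also called 0 genes. Ndufa4 had the largest value, 0.64 (edgeR adjusted p = 0.842), at 0 to 3126 CPM in controls (median 1803) and 2494 to 6298 CPM in co-culture (median 3233). The ranges overlapped. Cox6c, Cox8a and Cox7c stood at -0.14, -0.12 and -0.01. Whether a difference of the size seen for Cox8a in C2C12 could be detected at this depth was not tested. The lack of a call therefore does not show that such a difference was absent.

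Summed over all subunits, NSC34 control reads held 4.25% subunit reads (exact interval 3.94 to 4.58%) and co-cultured reads 5.4% (5.21 to 5.59%). Over libraries the mean share was 3.98 ± 0.873% for controls and 5.25 ± 0.331% for co-culture (SD, n = 6 each), and 6 of 6 co-cultured libraries lay above all controls. The control library with 88 reads was lowest at 2.27%, and the other controls ran from 4.04 to 4.74%, still below the lowest co-cultured library at 4.87%. Complex I went from 1.28 ± 0.124% to 1.80 ± 0.206% without overlap, and complex V from 0.813 ± 0.418% to 1.26 ± 0.167% with overlap. Complex IV was at 1.53 ± 0.289% and 1.74 ± 0.231%. Muscle markers held 1 read in NSC34 controls and 3 in co-culture, near 0 in both. Depth also differed, with 15858 control and 55007 co-culture reads in all, and its part in the sums was not tested.

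The co-culture effect was compared between the lines in 1 fit of all 24 libraries, with 72 subunits of 1328 genes. No subunit and no gene passed (0.0% of genes, 0 of 72 subunits). At an unadjusted p under 0.05 there were 13 subunits and 160 genes, and DESeq2 and limma-voom called 0 genes. That count of subunits was 2 with RLE, library totals or DESeq2, where it was 102, 104 and 76 for all 1328 genes. It was 5 with the length trend removed (135 of 1322 genes) and 8 with limma-voom (279 of 1328 genes). Without a filter it was 18 of 83 subunits and 510 of 15839 genes. For Cox8a, the effect in NSC34 minus that in C2C12 was -0.11 (edgeR adjusted p = 0.963). That Cox8a passed in C2C12 and not in NSC34 is therefore no evidence of a difference between the lines.

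Between the lines, the muscle forms Cox8b and Cox6a2 were read mainly in C2C12. Cox8b had 1086 reads in C2C12 and 0 in NSC34, whose 12 libraries gave 216 Cox8a reads. Against a limit of 3 reads over the group, Cox8b was at least 7.43-fold higher in co-cultured C2C12. Without NSC34 co-culture library 2, which held 30314 of the 55007 reads, this was at least 3.33-fold. In controls the bound was 1.24-fold, and it fell to 0.923, 0.929 and 0.880 without NSC34 control libraries 2, 3 and 5. A difference in controls is therefore not shown by this limit. Of subunit 8 reads in NSC34, 0 of 216 were Cox8b, which allows a share of up to 1.39% (2.52% without NSC34 co-culture library 2). Cox6a2 had 4 NSC34 reads, 56.4 CPM against 611 CPM in C2C12, so C2C12 was 10.8-fold higher (exact interval 4.22 to 39.7). It made up 4 of 66 subunit 6a reads in NSC34 (6.06%, exact interval 1.68 to 14.8%). Cox7a1 was low in both lines, 2 of 142 subunit 7a reads in NSC34 (1.41%, exact interval 0.171 to 5.0%, and 0.746% without co-culture library 3), and no difference was detectable.

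Other tissue forms had few reads in either line. Cox7b2, a testis form of subunit 7b, had 8 reads in 6 NSC34 libraries and 2 in C2C12, 113 against 0.604 CPM, a ratio of 187 (exact interval 37.3 to 1806). Cox4i2, known from lung, had 3 NSC34 reads in 3 co-cultured libraries and 0 in C2C12. Ndufa4l2, a gene induced by low oxygen, had 2 NSC34 and 3 C2C12 reads, a ratio of 31.1 (exact interval 2.60 to 272), and both NSC34 reads came from co-culture library 2. Cox6b2, a testis form, had 5 reads in C2C12 and 0 in NSC34.

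**Figure D4:**
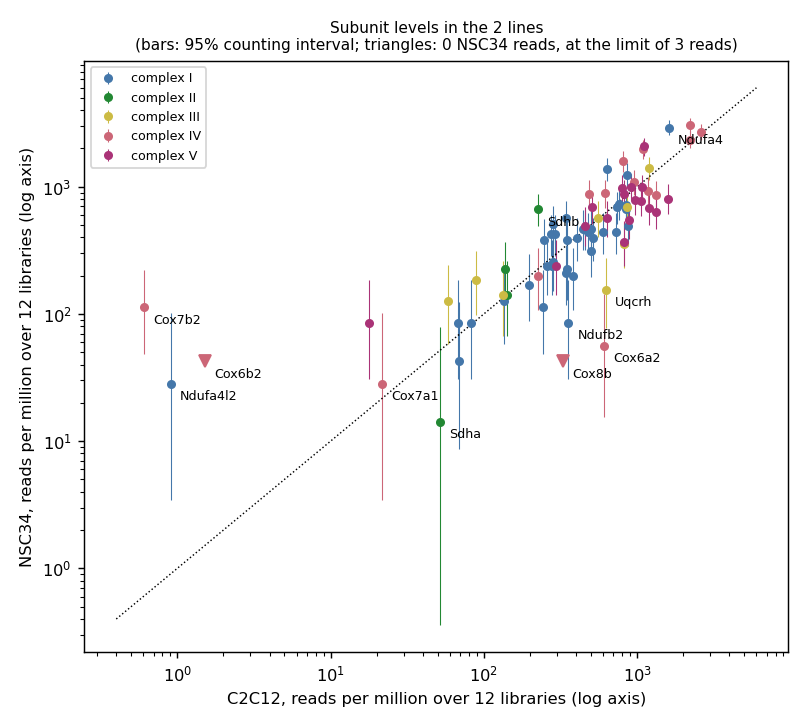
CPM of each subunit pooled over the 12 libraries of C2C12 (x axis, log scale) and NSC34 (y axis, log scale), coloured by complex; bars are 95% counting intervals, triangles have 0 NSC34 reads and stand at the limit of 3 reads, and the dotted line is equality. Of 82 subunits with C2C12 reads, the interval of the ratio lies above equality for 19, with Cox7b2, Ndufa4l2, Atp5s and Sdhb farthest above. It lies below equality for 17, among them Cox8b, Cox6a2, Ndufb2 and Uqcrh. Such intervals were not made for all genes, so these counts have no share of all genes beside them and are no result about subunits.

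The levels of the 82 subunits with C2C12 reads ranked alike in the lines (Spearman's rho 0.844 across genes, a description, since the points share library depth and length). Calls for single subunits depended on the scaling. With TMM factors, 1 subunit was higher and 33 lower in NSC34 controls (5.8% and 34.6% of all genes, 40.4% in either direction), and in co-culture 5 higher and 26 lower (16.9% and 35.3% of all genes, 52.3% in either direction). With library totals the counts were 2 and 5 of 72 subunits in controls, where 144 and 160 of all 1328 genes were called. In co-culture they were 13 and 13, where 352 and 333 genes were called. With a length trend removed they were 17 and 0 in controls (351 and 62 of 1322 genes), and 32 and 4 in co-culture (521 and 232 of 1322 genes). The median over all genes moved with the scaling, from -0.94 (TMM) to -0.09 (library totals) and 0.89 (length trend removed) in controls, and the subunit median moved with it, from -1.04 to -0.19 and 0.87. Relative to that median, 38 to 40 of 72 subunits lay below in every scaling and both conditions.

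Subunits called in the same direction under TMM, RLE, library totals and the length correction are given here, a reading added after the data were seen. In controls this was Sdhb, higher in NSC34, with an edgeR adjusted p of 0.0411 under TMM, the largest of the 4. The call did not hold: it was lost whichever of the 12 NSC34 libraries was left out (edgeR adjusted p = 0.0873 to 0.736), and the log2 value went from 1.15 to 0.29 without control library 5. It was kept in 6 of the 10 other settings. In co-culture Cox6a2, Cox8b, Ndufb2 and Uqcrh were lower in NSC34. Each kept its call in the 10 other settings and the 24 fits with 1 library left out. None of them had enough reads to be tested in NSC34 alone, so each entered the joint fit through its C2C12 reads. The refits used the same reads, so the kept calls are not separate support for a difference. Ndufb2 had 6 NSC34 reads and 84.7 CPM against 355 CPM in C2C12, and Uqcrh, the hinge protein of complex III, had 11 reads and 155 against 627 CPM. Of the 8 Uqcrh reads in co-cultured NSC34, all came from 1 library, co-culture 2. Without that library, Uqcrh pooled over both NSC34 conditions stood at 74.0 CPM, from control reads alone. Sdhb, Ndufa4, Ndufa12, Cox5b and Cox7a2 were higher, by 1.03, 0.57, 0.79, 0.53 and 0.42 on the log2 scale under TMM (edgeR adjusted p = 0.00394, 0.00221, 0.00165, 0.0267 and 0.0406). Cox5b and Cox7a2 lost theirs with each of the 12 NSC34 libraries left out, and kept it in 7 and 5 of the 10 other settings. Leaving a library out also changed the genes tested from 1328. They were 2060 to 2158 without an NSC34 library and 707 to 716 without a C2C12 one. Even libraries outside a contrast ended its calls, so these losses, and that of Sdhb in controls, need not reflect single libraries. The cause was not tested. Of 24 fits with 1 library left out, Ndufa4 was called in 15, Ndufa12 in 21 and Sdhb in 23. Without a filter on low counts these 5 changed sign, and without the deepest NSC34 library, co-culture 2, Sdhb and Cox7a2 did (-0.01 and -0.11). Sdhb stood at 159 to 305 CPM in co-cultured C2C12 (median 221) and 200 to 792 CPM in co-cultured NSC34 (median 510), with overlap.

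Over both conditions together, Atp5c1 differed by exon 9 between the lines. In C2C12, 662 of 1517 Atp5c1 reads were counted on the transcript without the exon (43.6%, exact interval 41.1 to 46.2%). By library the share was 27.6 to 56.1% in controls (median 41.5%, mean 41.6 ± 9.40%, SD, n = 6) and 32.2 to 54.5% in co-culture (median 44.3%, mean 44.7 ± 8.73%, SD, n = 6), with wide overlap. In NSC34, 0 of 35 reads, from 9 libraries, lacked the exon, which allows a share of up to 8.57%. Of these reads 19 came from co-culture library 2, and without it 0 of 16 reads allow up to 18.8%. The lowest C2C12 library, at 27.6%, stood above both limits. Only 4 of the 35 reads came from NSC34 controls, which allows a share of up to 75%, so for controls alone no difference was detectable.

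**Figure D5:**
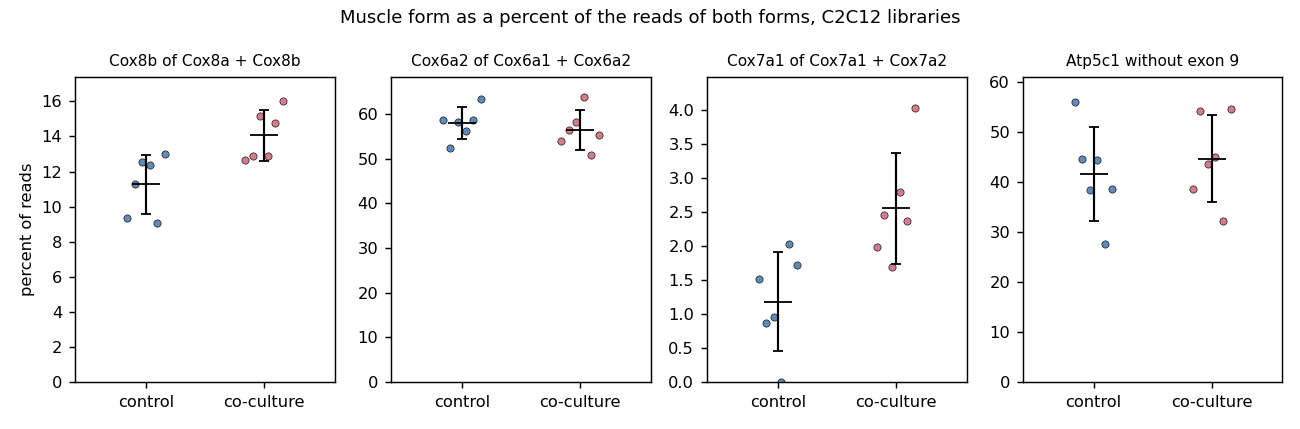
Muscle form as a percent of the reads of both forms in C2C12 control and co-cultured libraries, for subunits 8, 6a and 7a of complex IV and for Atp5c1 without exon 9; points are libraries, bars the mean and SD, and each axis starts at 0. The groups overlap in all 4 panels, most in Cox6a2 and Atp5c1.

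Other transcript forms were counted for the 19 subunits with at least 2 transcripts that each held 5% and 50 of the C2C12 reads of the gene. Of these, Atp5g1 and Uqcrq are compared between the lines here, and no rule fixed that choice. Atp5g1 reads fell on the long form Atp5g1-201 in 42.5% of 3934 C2C12 reads (exact interval 40.9 to 44.0%) and in 75% of 48 NSC34 reads (60.4 to 86.4%). Of the 36 NSC34 reads on that form, 18 came from co-culture library 2. A short form of Uqcrq held 17.1% of 3955 C2C12 reads (exact interval 15.9 to 18.3%) and 4.04% of 99 NSC34 reads (1.11 to 10%). Outside that rule and chosen after its values were seen, an Atp5f1 transcript annotated for nonsense-mediated decay held 3 of 1677 C2C12 reads and 11 of 49 NSC34 reads (22.4%, exact interval 11.8 to 36.6%), in 5 NSC34 libraries. Intervals over pooled reads leave out the spread between libraries. Some forms varied between libraries of 1 group: Ndufa10-207 took 0 to 49.3% of Ndufa10 reads in C2C12 controls and 0 to 53.6% in co-culture.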

How the data were processed

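The authors deposited 1 table of counts per line, holding whole Nanopore reads for each Ensembl transcript without normalization. The build is GRCm38, per the submitters' processing notes. Aligner, counting program and any use of strand: not given in the sources used here. Every value column matched a sample by name. Of 37677 C2C12 transcripts 37415, and of 10427 NSC34 transcripts 10374, matched GENCODE M21 and were summed per gene. CPM are relative to all reads of a library. Each line was fitted with edgeR 4.0.16 in R 4.3.3 (filterByExpr by group, TMM, quasi-likelihood F test, Benjamini-Hochberg over all genes tested, threshold 0.05). Line differences and the interaction came from 1 fit of 24 libraries in 4 groups. The alternatives were RLE, library totals, DESeq2 1.42.0, limma-voom (limma 3.58.1), no filter, a minimum mean count of 10, leaving out mitochondrial genes or libraries under 1000 reads, a length trend removed (loess, span 0.5), the replicate number as a block, and each library left out. Intervals are exact Clopper-Pearson at 95%, and the limit at a count of 0 is 3 reads. They cover counting error only. Similar genes were searched with BLAST+ 2.17.0 (100 bases, 90% identity) in Python 3.11.15. The fits within each line were tested on simulated data, and the fit of 24 libraries was not.

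The members, gene lists and tests were chosen with earlier results of these data known. Named were members past the threshold, tissue forms with their partners, and per complex the most read member, the 3 with the smallest p and those with the largest and smallest fold. Under edgeR with TMM many members passed between the lines, and of these the text names the ones called alike in 4 scalings. Leaving NSC34 libraries out of pooled limits and ratios was added after seeing the data. No libraries of a group held identical values, and all C2C12 pairs within a group differed by more than sampling noise (chi-square, largest p = 2.95e-26). In NSC34 controls 3 of 13 testable pairs did not differ at 0.05. Each included the library of 88 or that of 822 reads, too few to tell, and all were kept.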

Additional observations from a re-analysis of the deposited data

Results flagged for a closer look

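Shares of reads in both lines, and form shares and levels of single subunits in C2C12 only, were examined for single libraries far from the rest of their group of 6. Of 94 groups, 3 held such a library, where chance alone gives about 1 in 20. All 3 were in NSC34, which supplied only a small part of the 94 groups, so its own rate was higher. The NSC34 control library 1, with 88 reads, was low in the share of all respiratory chain subunits, at 2.27% of reads against 4.04 to 4.74% in the other 5. It was also low in complex V, at 0.0% against 0.849 to 1.22%. The NSC34 co-culture library 6, with 2807 reads, was high in complex IV, at 2.17% against 1.53 to 1.76% in the others.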

How the results depend on the processing

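In C2C12, 1 to 3 subunits were called higher and 11 to 74 genes called with 1 library left out, and 0 subunits lower in every setting and with every library left out. Genes called were 22, 12, 24 and 19 without co-culture libraries 1, 2, 3 and 5, and 18, 11, 74 and 73 without control libraries 1, 3, 5 and 6, against 37 with all. Subunits called higher were 5 of 77 with DESeq2 (37 of 2570 genes) and 4 of 77 with limma-voom (27 of 2570 genes). Without a filter they were 5 of 82 (55 of 15439 genes). Genes called in either direction were 67 with DESeq2, 58 with library totals and 106 without a filter. The replicate numbers did not pair the libraries: deviations of same-numbered libraries correlated at -0.054 to 0.105 in C2C12 and -0.232 to 0.325 in NSC34. With the replicate number as a block, 1 subunit and 26 genes were called in C2C12, and Cox8a did not pass (edgeR adjusted p = 0.0527).

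In NSC34, 0 to 1 genes and 0 subunits were called with 1 library left out. Between the lines in controls, subunits called higher were 2 with DESeq2, 17 with the length trend removed, 0 with libraries under 1000 reads left out, 2 with library totals, 2 with limma-voom, 0 at a mean count of at least 10 and 0 with mitochondrial genes left out. Of all genes, those called higher were 155, 351, 82, 144, 244, 29 and 71, in the same order. Genes tested were 1328, 1322, 2454, 1328, 1328, 1803 and 1325. Subunits called lower in controls were 5 with DESeq2, 12 with RLE, 0 with the length trend removed, 5 with library totals and 67 without a filter. Of all genes, those called lower were 129, 213, 62, 160 and 1276, in the same order. Genes called in either direction were 284 with DESeq2, 325 with RLE, 304 with library totals and 1373 of 15839 without a filter. In co-culture, subunits called higher were 9 with DESeq2, 9 with RLE, 32 with the length trend removed, 2 with libraries under 1000 reads left out, 13 with library totals, 3 with limma-voom and 2 without a filter. Of all genes, those called higher were 290, 278, 521, 252, 352, 241 and 275, in the same order. Subunits called lower in co-culture were 4 with the length trend removed, 13 with library totals and 61 without a filter. Of all genes, those called lower were 232, 333 and 1834, in the same order. In either direction, 2109 genes were called without a filter against 694. With 1 library left out, line differences gave 0 to 1 subunits higher, 21 to 47 lower and 298 to 880 genes in controls, and 0 to 8 higher, 22 to 42 lower and 432 to 947 genes in co-culture. In co-culture the 42 lower and 0 higher calls came without NSC34 co-culture 2. The genes tested also changed in these fits, ranging from 707 to 2158 against 1328 with all libraries. The interaction gave 1 gene with the length trend removed, 0 to 10 genes with 1 library left out (10 without NSC34 co-culture 6) and 0 subunits throughout.

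Without a filter, signs changed for Sdhb between lines in controls (-0.10) and, in co-culture, for Cox5b (-0.56), Cox7a2 (-0.67), Ndufa12 (-0.29), Ndufa4 (-0.52) and Sdhb (-0.036). In C2C12, Cox6c turned to 0.031 with limma-voom and 0.072 without a filter, and Sdha to -0.048 with limma-voom. In NSC34, Cox6c turned to 0.069 with limma-voom and 0.43 without a filter, Cox8a to 0.47 without a filter, and Cox7c to 0.0047 with libraries under 1000 reads left out, 0.056 with library totals, 0.0026 with mitochondrial genes left out and 0.56 without a filter. The Cox8a interaction turned to 0.036 with limma-voom and 0.037 without a filter. With 1 library left out, values ran from -0.00072 to 0.17 for Cox6a2, -0.081 to 0.024 for Cox6c, -0.064 to 0.17 for Sdha and -0.024 to 0.19 for Sdhb in C2C12. They ran from -0.25 to 0.090 for Cox6c and -0.15 to 0.063 for Cox7c in NSC34, from -0.11 to 0.58 for Cox7a2 and -0.014 to 1.26 for Sdhb between lines in co-culture, and from -0.36 to 0.23 for the Cox8a interaction. The cause was not tested. Shares of reads and of forms kept their direction with 1 library left out except complex II in NSC34 (-0.0270 to 0.00317 percentage points).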
